A study of Mus musculus with 8 samples.

Results

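The 40 genes described here encode collagens, matrix glycoproteins, proteoglycans, laminins, crosslinking enzymes, metalloproteinases with their inhibitors, and markers of hepatic stellate cells. They were taken by symbol from the 22923 gene symbols of the liver expression tables, and all 40 were present. Livers came from C57BL/6 mice in 4 groups, namely flox controls (Xbp1flox) and mice lacking Xbp1 in the liver (Xbp1-/-), each kept for 4 weeks on chow (a regular diet) or on high-fat food together with a high-fructose corn syrup equivalent. All mice of a genotype carried that same Xbp1 allele on both diets, and no source used here gives the driver of the deletion. Each group held 4 mice whose livers were pooled into 2 libraries, and the deposited tables give 1 value per gene and group. Values are RPKM, reads per kilobase of transcript scaled to the mapped reads, so levels can be set side by side between genes. No difference below has a replicate check, the spread between libraries is unknown, and no p-value is given. Where 4 values follow a gene, they run from flox chow and flox high fat to knockout chow and then knockout high fat.

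The liver matrix has more than one cellular source. Hepatic stellate cells, the vitamin A storing pericytes of the sinusoid, and portal fibroblasts make the fibrillar collagens that accumulate in fibrosis, while hepatocytes release plasma fibronectin and are a known source of type XVIII collagen. Collagen chains are hydroxylated and folded in the endoplasmic reticulum (ER), and XBP1, a transcription factor activated by ER stress, maintains the ER of secretory cells. In bulk liver a change in the number of cells of a type and a change in RNA per cell cannot be told apart.

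A log2 change is log2 of (RPKM + 1) in one group minus that in the other, which understates the change of low genes. A gene is said to have risen or fallen where this change is at least 1 in size. Of the 40 genes, 32 reached 1 RPKM in at least 1 group and 23 reached it in all 4. Another 5 reached it in knockout high fat alone. The 8 genes under 1 RPKM in all groups were Col5a1, Col5a2, Lama5, Lox, Loxl1, Mmp13, Timp1 and Acta2, and none of the 40 was listed at 0. Xbp1 itself stood at 112 and 90.7 RPKM in the flox groups on chow and high fat and at 44.2 and 34.1 RPKM in the knockout groups. The deposited values summed to between 367414 and 513694 RPKM per group, lowest in knockout high fat, and depth per library is unknown. Albumin, Alb, was listed at 0 in all 4 groups, while the hepatocyte genes Apoa1 (4793 to 12127 RPKM) and Cyp2e1 (1707 to 5287 RPKM) were abundant in every group.

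The matrix genes that were most abundant in flox livers fell in knockout livers on both diets. Fn1, which encodes fibronectin (mm10 chromosome 1, 71585473 to 71653280), was read at 119, 165, 36.5 and 61.7 RPKM. Both knockout values lay below both flox values, and within each genotype the high-fat value was the higher. The knockout level was 30.6% of flox on chow (log2 change -1.68) and 37.3% on the high-fat diet (log2 change -1.41). Col18a1, the gene of a basement membrane collagen whose C-terminal fragment is endostatin, stood at 119, 125, 40.2 and 46.8 RPKM. Its knockout level was 33.7% of flox on chow (log2 change -1.55) and 37.4% on the high-fat diet (log2 change -1.40).

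Fn1 and Col18a1 kept close proportions to one another. The ratio of Fn1 to Col18a1 was 0.999 in flox chow and 0.907 in knockout chow, and 1.32 in both genotypes on the high-fat diet. A ratio within a group is unaffected by any rescaling of that group. P4hb, which encodes protein disulfide isomerase and the shared subunit of the collagen prolyl 4-hydroxylases, fell by a similar factor, from 476 to 157 RPKM on chow and from 491 to 189 RPKM on the high-fat diet. The ratio of Fn1 to P4hb was 0.250 in flox chow and 0.233 in knockout chow, and 0.337 in flox high fat and 0.327 in knockout high fat. Fn1 and Col18a1 together made up 53.7% and 57.6% of the summed RPKM of all 40 genes in flox livers on chow and high fat, against 23.3% and 24.4% in knockout livers. The other 38 genes summed to 206, 214, 253 and 336 RPKM.

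Read against all genes, a fall past the threshold was not frequent. On chow 1.37% of the 10322 genes compared fell in knockout livers and 0.252% rose, and on the high-fat diet 1.86% of 10327 fell and 1.07% rose. Of the 40 members, 2 fell and 0 rose on chow, and 2 fell and 3 rose on the high-fat diet. Mmp12, 1 of these 3, reached 1 RPKM only in knockout high fat, the group in which it was high. Among the 28 members with a mean of at least 1 RPKM over the groups, 2 rose on the high-fat diet. Of the 9876 genes compared with such a mean, 91 did. The median log2 change of the 40 was 0.14 on chow and 0.44 on the high-fat diet, beside -0.02 and -0.13 over all genes compared. On chow 33 of 40 members lay above 0, where 45.8% of all genes did, and on the high-fat diet 37 of 40 did, where 29.9% of all genes did. Here and below, figures for the 40 include the 8 members under 1 RPKM in all groups, while those over all genes leave such genes out. Of the 32 members that reached 1 RPKM, 26 lay above 0 on chow (median 0.24) and 29 on the high-fat diet (median 0.44). The members are co-expressed genes and are not independent of one another.

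The scaling of the tables moved these values. When groups were rescaled to a median log2 ratio of 0, the median of all genes moved by 0.24 in knockout against flox on the high-fat diet and by 0.24 in high fat against chow in knockout livers, and by 0.07 in the other 2 comparisons. Scaling to an equal sum without the 50 most abundant genes moved these medians by 0.25, 0.24, 0.12 (knockout against flox on chow) and 0.11 (high fat against chow in flox). After the first rescaling 186 genes rose and 93 fell in knockout livers on the high-fat diet, against 111 and 192 as deposited. In high fat against chow the split went from 22 and 44 to 29 and 36 in flox livers and from 69 and 82 to 132 and 47 in knockout livers. Fn1 and Col18a1 fell on both diets under both rescalings, with log2 changes of -1.12 and -1.12 on the high-fat diet after the first. The signs of the knockout change of Lamc1 and Acta2 on chow and of Timp3 on the high-fat diet turned from negative to positive under both.

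**Figure D1:**
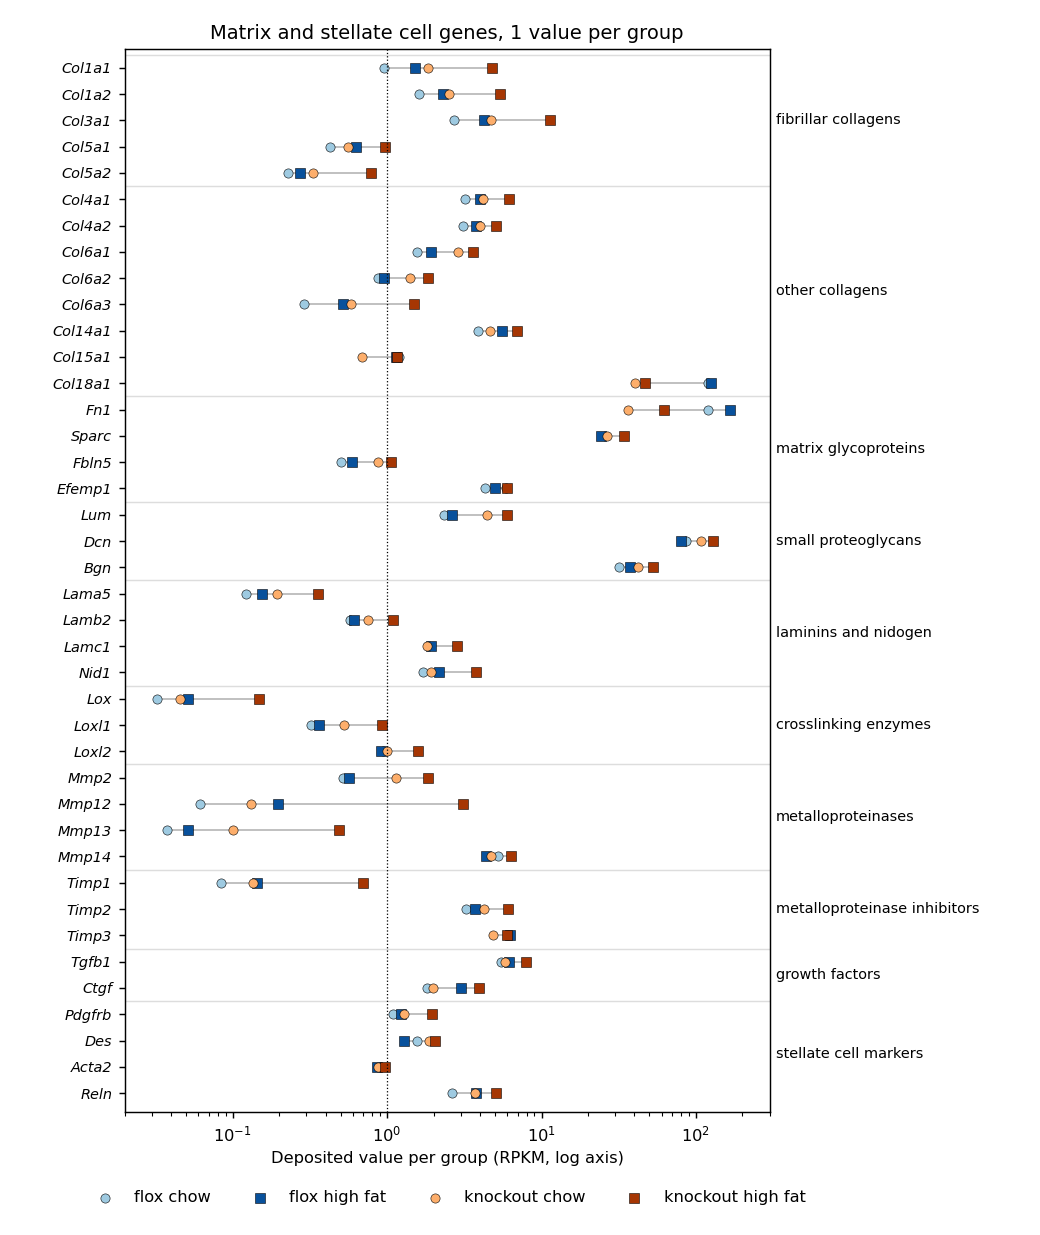
Deposited RPKM (log axis) of the 40 genes in the 4 groups, ordered by role, with a dotted line at 1 RPKM and 1 point per group. Fn1 and Col18a1 lie between 36.5 and 165 RPKM with both knockout points on the left, while for 36 of the 40 genes knockout high fat is the rightmost point.

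The fibrillar collagens Col1a1, Col1a2 and Col3a1 were higher, not lower, in knockout livers. Not every fibrillar collagen was. Col27a1 and Col5a3, which are outside the gene set, were lower in knockout livers on each diet. On chow and high fat their log2 changes were -0.35 and -0.39 for Col27a1 and -0.13 and -0.49 for Col5a3. Col3a1, type III collagen (mm10 chromosome 1, 45311538 to 45349706), stood at 2.72, 4.23, 4.73 and 11.3 RPKM in the 4 groups. Col1a1, the alpha 1 chain of type I collagen (mm10 chromosome 11, 94936224 to 94953042), stood at 0.954, 1.51, 1.83 and 4.78 RPKM. Col1a2, its alpha 2 chain (mm10 chromosome 6, 4505618 to 4541543), stood at 1.62, 2.31, 2.52 and 5.41 RPKM. For each of the 3 genes flox chow was lowest, knockout high fat was highest, and flox high fat and knockout chow lay close together between them. On the high-fat diet Col3a1 (log2 change 1.23) and Col1a1 (log2 change 1.21) rose in knockout livers, and the change of Col1a2 was 0.95. With a pseudocount of 5 in place of 1 none of these passed the threshold. On chow their knockout changes were 0.62, 0.54 and 0.43, none past the threshold.

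The ratio of fibronectin to fibrillar collagen RNA separated the genotypes. Fn1 RPKM divided by the sum of Col1a1, Col1a2 and Col3a1 was 22.5 and 20.6 in flox livers on chow and high fat and 4.02 and 2.87 in knockout livers. The ratio was 5.61-fold lower in knockout than in flox livers on chow (log2 change -2.49) and 7.16-fold lower on the high-fat diet (log2 change -2.84). The high-fat diet itself changed it by a log2 value of -0.13 in flox and -0.48 in knockout livers. On chow the fall of the ratio came mostly from Fn1, at 0.306 of its flox level, while the collagen sum was 1.72 times the flox sum. On the high-fat diet Fn1 was at 0.373 of flox and the collagen sum at 2.67 times flox.

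**Figure D2:**
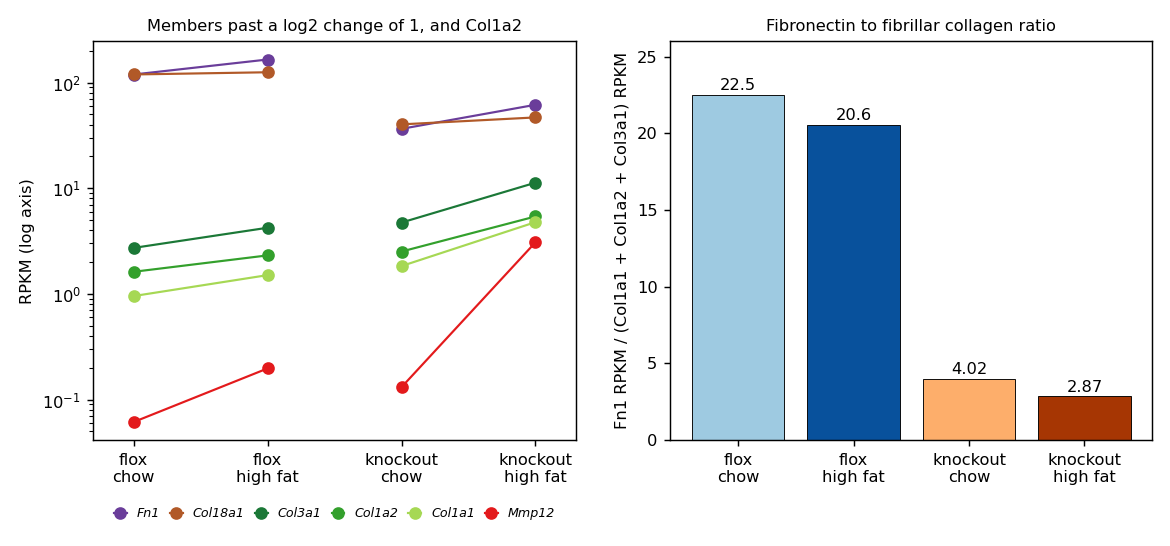
Left, RPKM (log axis) of the 5 genes with a log2 change of at least 1 in some comparison and of Col1a2, 1 point per group and lines joining the diets within a genotype; right, the ratio of Fn1 to the summed RPKM of Col1a1, Col1a2 and Col3a1. Fn1 and Col18a1 are lower in the knockout pair while the collagens and Mmp12 are highest in knockout high fat, and the ratio goes from 22.5 and 20.6 in flox to 4.02 and 2.87 in knockout livers.

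Sequence upstream of the start is shown for Col18a1, which fell, and for Col3a1 and Col1a2 of the fibrillar group, so that the genes with opposite changes can be read side by side. The RefSeq promoter sequences used here, on GRCm38.p6, the assembly that mm10 denotes, cover 31 start sites of 27 of the 40 genes. Fn1 and Col1a1 are not among these genes, so their promoters were not searched. The 250 bases before each of the 31 starts were searched on both strands. The motifs were the ER stress element (ERSE), its second form ERSE-II, the unfolded protein response element core TGACGTGG, and the shorter CCACG and CCAAT, which are parts of the longer motifs; the reverse complement of TGACGTGG also contains CCACG. Each line runs 5′ to 3′ on the gene's strand, and capitals mark matches to CCACG or CCAAT or their reverse complements.
Col18a1, upstream start (chr10:77166531-77166780, minus strand): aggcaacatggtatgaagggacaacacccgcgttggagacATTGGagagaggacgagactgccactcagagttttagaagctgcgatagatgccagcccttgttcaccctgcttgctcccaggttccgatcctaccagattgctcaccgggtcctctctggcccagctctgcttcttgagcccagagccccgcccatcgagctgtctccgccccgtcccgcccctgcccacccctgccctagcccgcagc
Col18a1, downstream start (chr10:77113706-77113955, minus strand): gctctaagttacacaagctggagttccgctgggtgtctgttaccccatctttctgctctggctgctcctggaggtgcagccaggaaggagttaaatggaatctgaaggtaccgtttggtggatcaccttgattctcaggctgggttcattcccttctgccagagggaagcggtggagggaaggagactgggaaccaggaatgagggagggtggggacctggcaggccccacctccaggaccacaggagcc
Col3a1 (chr1:45311288-45311537, plus strand): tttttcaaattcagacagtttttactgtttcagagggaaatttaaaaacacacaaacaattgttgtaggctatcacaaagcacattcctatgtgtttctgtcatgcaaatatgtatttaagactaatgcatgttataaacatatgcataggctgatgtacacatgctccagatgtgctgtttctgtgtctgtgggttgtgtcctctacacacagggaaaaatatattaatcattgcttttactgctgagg
Col1a2 (chr6:4505368-4505617, plus strand): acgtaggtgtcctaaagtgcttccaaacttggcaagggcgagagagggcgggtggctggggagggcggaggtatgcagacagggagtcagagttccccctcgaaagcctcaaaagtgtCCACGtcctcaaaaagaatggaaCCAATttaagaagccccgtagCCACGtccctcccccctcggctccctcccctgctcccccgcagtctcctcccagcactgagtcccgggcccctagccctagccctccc

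Col1a2 held 2 matches to CCACG and 1 to CCAAT, the upstream start of Col18a1 held 1 match to CCAAT, and Col3a1 and the downstream start of Col18a1 held none. Neither form of the ER stress element was found in any of the 31 windows; over 32851 windows of the same length they occur in 0.113% and 0.0304%. TGACGTGG occurred in 1 of the 31, that of Timp1, and in 0.563% of all windows. CCACG occurred in 12 of 31 windows and 28.3% of all, and CCAAT in 9 of 31 and 33.8% of all. The Col3a1 window was 35.2% G and C, against 62.0% for Col1a2, 62.0% for the upstream and 57.6% for the downstream start of Col18a1. These are matches of letters in one window per start and were not set against binding.

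Ratios between fibrillar collagen chains also differed between groups. Type I collagen is built from alpha 1 and alpha 2 chains, and the ratio of Col1a1 to Col1a2 RPKM was 0.589, 0.650, 0.729 and 0.884 in the 4 groups. The ratio of Col3a1 to Col1a1, between types III and I, went from 2.86 and 2.81 in flox to 2.58 and 2.36 in knockout livers. Col1a1 enters both ratios, so they are not separate observations. Col5a1 and Col5a2, chains of the type V collagen that nucleates fibrils, were low throughout, at 0.425 to 0.969 RPKM and 0.228 to 0.784 RPKM, and highest in knockout high fat. Col5a2 lies 24.6 kb from Col3a1 on chromosome 1 with no protein-coding gene between them, and was 2.87 times flox in knockout high fat, where Col3a1 was 2.67 times flox.

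The type IV and type VI collagens were higher in both knockout groups than in both flox groups, with no change past the threshold. Col4a1 and Col4a2, the common chains of basement membrane type IV collagen, stood at 3.18 and 3.11 RPKM in flox chow and 6.12 and 5.09 RPKM in knockout high fat. These genes overlap head to head at their starts on chromosome 8, and their ratio stayed between 1.02 and 1.2. Their knockout changes were 0.30 and 0.28 on chow and 0.51 and 0.36 on the high-fat diet. Type VI collagen, a beaded filament network, had changes of 0.60 (Col6a1), 0.37 (Col6a2) and 0.30 (Col6a3) on chow and of 0.65, 0.55 and 0.71 on the high-fat diet. Col6a3, at 0.289, 0.521, 0.582 and 1.49 RPKM, was 2.86 times flox on the high-fat diet, where Col3a1 was 2.67 times flox.

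Neighbours on a chromosome could differ in direction. Col6a1 and Col18a1 lie 326 kb apart on chromosome 10 with 2 protein-coding genes between them, Pcbp3 and Slc19a1, yet Col6a1 was at 1.84 times and Col18a1 at 0.337 times the flox level in knockout chow. Col14a1, a collagen that associates with fibrils, stood at 3.88, 5.57, 4.65 and 6.97 RPKM in the 4 groups, with a larger diet change (0.43 in flox, 0.50 in knockout) than knockout change (0.21 on chow, 0.28 on high fat). Col15a1, the closest relative of Col18a1, stood at 1.19, 1.14, 0.683 and 1.16 RPKM. It was lower in knockout chow alone (log2 change -0.38), and its knockout change on the high-fat diet was 0.02.

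The small leucine-rich proteoglycans among the 40 genes, Dcn, Bgn and Lum, were higher in both knockout groups than in both flox groups. These proteins bind collagen fibrils. Outside the 40 genes the family was not uniform. Podn was lower in knockout livers on the high-fat diet (log2 change -0.49), while Prelp was higher on chow (0.18) and on the high-fat diet (0.37). Dcn, decorin, was after Fn1 and Col18a1 the most abundant of the 40 genes in flox livers and the most abundant in knockout livers, at 86.7, 80.0, 108 and 130 RPKM. Bgn, biglycan, stood at 31.6, 37.4, 42.3 and 52.5 RPKM. Lum, lumican, stood at 2.33, 2.61, 4.43 and 5.99 RPKM and had the largest positive knockout change on chow (0.70). On the high-fat diet its change of 0.95 was, with that of Col1a2, the nearest to the threshold from below, while Dcn changed by 0.69 and Bgn by 0.48. Dcn and Lum are neighbours 47.3 kb apart on chromosome 10, and the ratio of Dcn to Lum was 37.2 and 30.6 in flox and 24.3 and 21.7 in knockout livers.

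The other matrix glycoproteins did not share the fall of Fn1. Sparc, which encodes osteonectin, a collagen-binding glycoprotein, was abundant at 25.7, 24.1, 26.6 and 34.2 RPKM in the 4 groups, so that knockout high fat alone stood apart. The elastic fibre proteins Efemp1 (4.33, 4.98, 5.85 and 6.00 RPKM) and Fbln5 (0.50, 0.592, 0.870 and 1.07 RPKM) were higher in both knockout groups than in both flox groups. Efemp1 had the smallest change of all 40 genes with diet in knockout livers (0.03). The laminin chains Lama5, Lamb2 and Lamc1 differed between knockout and flox by 0.09, 0.15 and -0.03 on the log2 scale on chow, the last of which turned positive under both rescalings, and by 0.23, 0.38 and 0.40 on the high-fat diet. Nid1, nidogen, which links laminin to type IV collagen, stood at 1.71, 2.16, 1.93 and 3.79 RPKM, highest in knockout high fat.

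Enzymes that crosslink collagen and elastin were low. Lox, lysyl oxidase, lay between 0.0321 and 0.148 RPKM and Loxl1 between 0.322 and 0.920 RPKM, both highest in knockout high fat. Loxl2 stood at 0.937, 0.913, 0.999 and 1.59 RPKM, and its 3 lower groups differed by less than 0.1 RPKM. None of the 3 genes passed the threshold in any comparison.

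Among the metalloproteinases of the 40 genes Mmp12 had the largest changes. Mmp12, the macrophage elastase (mm10 chromosome 9, 7344397 to 7360461), stood at 0.0612, 0.197, 0.131 and 3.08 RPKM in the 4 groups. It reached 1 RPKM in knockout high fat alone, at 15.6 times flox high fat and 23.5 times knockout chow. It rose in knockout against flox on the high-fat diet (log2 change 1.77) and in high fat against chow in knockout livers (log2 change 1.85), and in neither with a pseudocount of 5. It was the 1 member of 40 past the threshold for the difference between the 2 knockout changes, high fat minus chow, at 1.68, where 0.659% of all genes rose and 0.572% fell by that measure. Mmp13, a collagenase whose gene lies 61.1 kb away, stood at 0.0377, 0.0512, 0.0998 and 0.491 RPKM, at a lower level and also highest in knockout high fat. The pattern was not particular to Mmp12. Mmp7, outside the 40 genes, stood at 0.0228, 0.0399, 0.0380 and 0.741 RPKM. In knockout high fat Mmp7 was at 18.6 times flox high fat and 19.5 times knockout chow. Fold values at levels this low rest on few reads, whose number is unknown.

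The gelatinase Mmp2, made by stellate cells and fibroblasts, stood at 0.521, 0.569, 1.15 and 1.84 RPKM, with both knockout values above both flox values (log2 change 0.50 on chow and 0.85 on high fat). The membrane-bound Mmp14, which activates pro-MMP2, stood at 5.24, 4.34, 4.72 and 6.30 RPKM and had no common order between genotypes. Of the inhibitors, Timp1, which is induced in injured liver, went from 0.143 RPKM in flox high fat to 0.698 RPKM in knockout high fat and stayed under 1 RPKM. Timp2 stood at 3.24, 3.72, 4.22 and 6.04 RPKM, with both knockout values above both flox values. Timp3, a matrix-bound inhibitor, was the 1 member besides Fn1 and Col18a1 with a negative knockout change on the high-fat diet (-0.05, which turned positive under both rescalings), and stood at 6.10, 6.25, 4.88 and 6.01 RPKM.

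None of the growth factors and PDGF receptor members passed the threshold. Tgfb1, the main fibrogenic cytokine, stood at 5.49, 6.12, 5.83 and 7.93 RPKM, highest in knockout high fat. Ctgf, a matricellular protein induced by TGF-beta and by YAP, stood at 1.80, 3.01, 1.98 and 3.96 RPKM. It went with diet in both genotypes (0.52 in flox, the largest diet change there of the 40 genes, and 0.73 in knockout) and its knockout changes were 0.09 and 0.31. Pdgfrb, the PDGF receptor of stellate cells and pericytes, stood at 1.10, 1.22, 1.29 and 1.95 RPKM.

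The stellate cell markers Des, Reln and Acta2 did not pass the threshold in any comparison. Des, desmin, stood at 1.55, 1.29, 1.86 and 2.04 RPKM, and Reln, reelin, at 2.63, 3.77, 3.70 and 5.10 RPKM, with log2 changes between 0.35 and 0.39 for genotype and for diet. Acta2, smooth muscle actin and the usual mark of stellate cell activation, lay between 0.863 and 0.965 RPKM in all groups, the narrowest span of the 40 genes. The ratio of Col3a1 to Acta2 was 3.03 and 4.90 in flox and 5.45 and 11.7 in knockout livers on chow and high fat, and that of Col3a1 to Pdgfrb was 2.48, 3.46, 3.67 and 5.80. Col3a1 was thus higher relative to both markers in knockout high fat than in any other group.

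**Figure D3:**
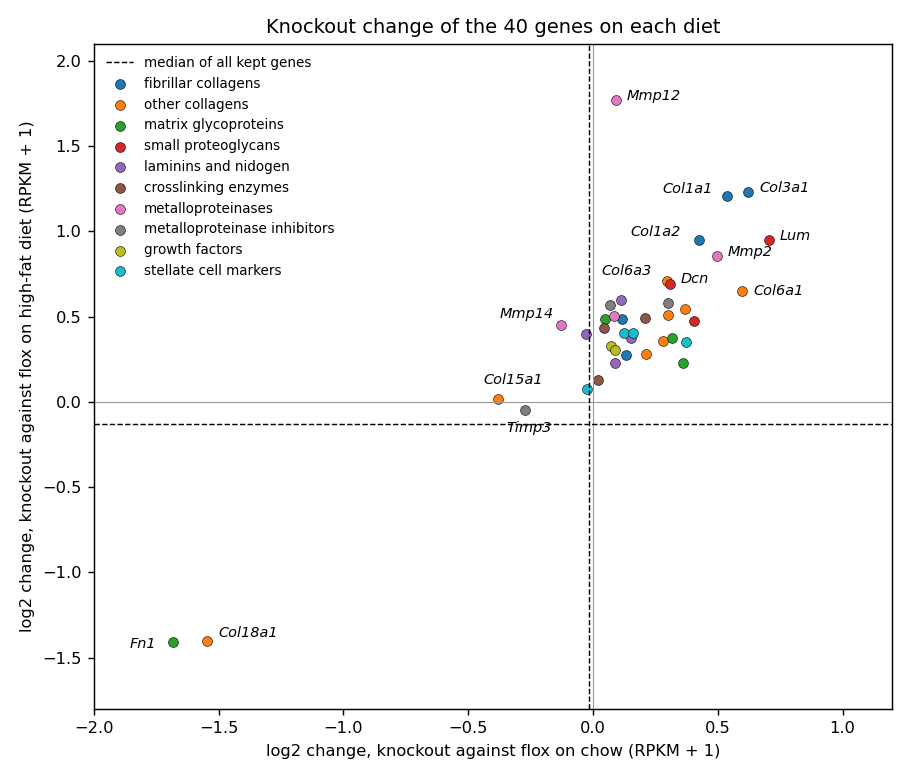
Log2 change of RPKM + 1 in knockout against flox livers on chow (horizontal) and on the high-fat diet (vertical) for the 40 genes, coloured by role, 1 point per gene; dashed lines are the medians of all genes compared (-0.02 and -0.13). Fn1 and Col18a1 lie alone at the lower left, Mmp12, Col1a1 and Col3a1 are above 1 on the vertical axis, and 37 of 40 points are above 0 on it.

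The high-fat diet alone gave no member past the threshold in flox livers, where 0.213% of 10322 genes rose and 0.426% fell. The median of the 40 was 0.08, beside -0.01 over all genes, and the extremes were Ctgf (0.52) and Mmp14 (-0.23). In knockout livers 3 of 40 rose with the diet, Mmp12 (1.85), Col3a1 (1.10) and Col1a1 (1.03), and 0 fell, where 0.668% of 10328 genes rose and 0.794% fell. All 40 members lay above 0 there, with a median of 0.36 beside -0.11 over all genes. This comparison shares the knockout high fat group with that of knockout against flox on the high-fat diet, so a high value in that group enters both. The difference between the 2 knockout changes was positive for 38 of 40 genes (median 0.26, beside -0.10 over all genes) and negative for Efemp1 (-0.13) and Reln (-0.02), whose sign turned under both rescalings.

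Across the groups, 24 of 40 members had both knockout values above both flox values, where 12.3% of the 10351 genes kept did. Another 3, Fn1, Col18a1 and Timp3, had both below, where 29.4% of genes did, although for Timp3 the order on the high-fat diet turned under both rescalings. The highest value was in knockout high fat for 36 of 40, where 17.4% of genes had it. These counts of members include the 8 under 1 RPKM in all groups, and the percentages leave such genes out. The 4 exceptions were Fn1, Col18a1 and Timp3, highest in flox high fat, and Col15a1, highest in flox chow.

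The machinery that modifies and folds collagen moved in both directions. Of 27 listed genes 20 reached 1 RPKM in a group. P4hb alone fell on each diet (log2 changes -1.60 and -1.37) and 0 rose, and the list medians were -0.05 on chow and -0.11 on the high-fat diet. Over all genes compared, 1.37% fell and 0.252% rose on chow, and 1.86% fell and 1.07% rose on the high-fat diet. These shares stand beside the knockout counts of each list below. Serpinh1, the collagen-specific chaperone HSP47 made by stellate cells and fibroblasts, stood at 3.58, 3.66, 4.63 and 6.29 RPKM in the 4 groups, the order of Col3a1. Pcolce, an enhancer of procollagen cleavage, likewise went from 3.96 RPKM in flox high fat to 7.10 RPKM in knockout high fat. The prolyl isomerase Ppib (99.5, 75.7, 57.3 and 44.7 RPKM) and the COPII coat subunit Sec24d (12.3, 14.5, 7.58 and 8.47 RPKM) were lower in both knockout groups than in both flox groups.

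Furin was the 1 TGF-beta pathway gene past the threshold. Of 29 listed, 19 reached 1 RPKM in a group, with list medians of 0.04 on chow and 0.16 on the high-fat diet. On each diet 1 of the 19 fell and 0 rose, where 1.37% of all genes fell on chow and 1.86% on the high-fat diet. A count of 1 among so few genes says little about the pathway. Furin, the protease that cleaves pro-TGF-beta and many other secreted precursors, fell from 47.4 to 18.8 RPKM on chow and from 43.6 to 18.9 RPKM on the high-fat diet. Tgfbi, a TGF-beta induced matrix protein, stood at 11.6, 13.4, 15.4 and 20.2 RPKM, highest in knockout high fat. In a further list of matrix glycoproteins and proteoglycans 16 of 40 reached 1 RPKM, with medians of 0.21 on chow and 0.42 on high fat. Of the 16, 1 rose on the high-fat diet, where 1.07% of all genes did. It was Mgp, matrix Gla protein (1.74 to 5.11 RPKM, log2 change 1.15).

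Most other listed secreted products of hepatocytes were lower too, and most by less than Fn1. Of 22 plasma glycoprotein genes above 0 in the groups compared, 4 fell on chow (median -0.40) and 6 on the high-fat diet (median -0.68), and 0 rose on either. On each diet 21 of them lay below 0 and 1 above. Serpina1a, also listed, was at 0 in 3 groups and at 1858 RPKM in knockout high fat, and was left out of these counts. Itih4 (668 to 141 RPKM, log2 change -2.23) and Azgp1 (1075 to 298 RPKM, log2 change -1.85) fell further than Fn1 on chow, while fibrinogen Fgb went from 1770 to 1426 RPKM (log2 change -0.31). The ratio of Fn1 to Fgb was 0.0674 in flox chow and 0.0256 in knockout chow, and 0.110 and 0.0626 on the high-fat diet.

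Markers of several other liver cell types were also highest in knockout high fat. Summed over the markers above 0 in all groups, 16 quiescent stellate cell and pericyte markers stood at 104, 109, 111 and 130 RPKM in the 4 groups, with none at 0. The 14 myofibroblast markers other than Spp1, which cholangiocytes also make, summed to 10.6, 12.7, 15.4 and 18.1 RPKM, and Cthrc1 was at 0 in some group. Portal fibroblast and mesothelial markers (12 genes, none at 0) summed to 14.5, 16.2, 14.0 and 21.7 RPKM. All 3 sums were highest in knockout high fat, and the portal fibroblast sum was lowest in knockout chow. That sum rests largely on Gas6 (8.83, 9.46, 7.08 and 11.5 RPKM). Of the 5 portal fibroblast and mesothelial markers that reached 1 RPKM, 3 lay above 0 in knockout against flox on chow (median 0.25). The quiescent sum rests largely on Ecm1 (48.7 to 53.6 RPKM in every group), while the pericyte gene Rgs5 rose with diet in knockout livers (4.17 to 9.47 RPKM, log2 change 1.02). The median knockout change of the 13 quiescent markers that reached 1 RPKM was 0.07 on chow and 0.37 on the high-fat diet. With diet in knockout livers their median change was 0.24, with 10 above 0 and 3 below, and Rgs5 was the highest of them. In flox livers Rgs5 changed by 0.57 with diet.

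Macrophage and Kupffer cell markers (17 genes, none at 0) summed to 265, 287, 272 and 424 RPKM. Their median knockout change was 0.01 on chow, and all 14 that reached 1 RPKM lay above 0 in knockout against flox on the high-fat diet, with 2 rises, Cd9 (1.36) and Trem2 (1.29). They were highest in the group where Mmp12 was. Cholangiocyte markers other than Spp1 (12 genes) summed to 10.2, 12.6, 14.2 and 26.3 RPKM, and Spp1 itself stood at 19.7, 20.6, 39.4 and 103 RPKM. Endothelial markers (15 genes, none at 0) summed to 147, 142, 139 and 140 RPKM, a sum in which Clec4g, Fcgr2b and Eng weigh most. Their median knockout change was 0.01 on each diet, with Lyve1 lowest (-0.46 on chow and -0.64 on high fat), and 11 of 15 lay above 0 for diet in flox livers. Hepatocyte markers (15 genes besides Alb, which was at 0) summed to 56173, 49043, 43028 and 28425 RPKM, lowest in knockout high fat. Not every hepatocyte marker was lower. Their median knockout change was -0.18 on chow and -0.57 on the high-fat diet, and 3 of the 15 lay above 0 on each diet. The part of these cell types in the values of the matrix genes was not tested.

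**Figure D4:**
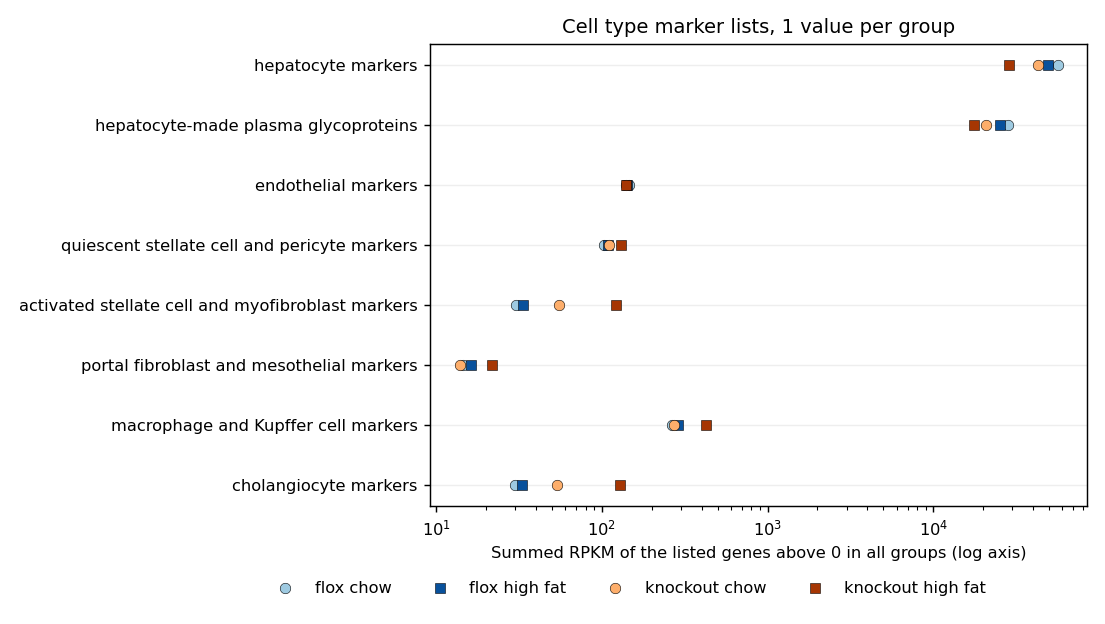
Summed RPKM (log axis) of the listed markers of each cell type that were above 0 in all groups, 1 point per group. Knockout high fat is highest for stellate, fibroblast, macrophage and cholangiocyte lists (Spp1 belongs to both the myofibroblast and the cholangiocyte list) and lowest for hepatocyte markers, while the endothelial points lie between 139 and 147 RPKM.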

How the data were processed

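Liver RNA sequencing was analysed from 4 deposited tables, 1 per group, in RPKM per the file headers. A table's group was read from its name, matched to the titles of the samples. Per the submitters' processing notes the tools were TopHat2 2.0.7 and Cuffdiff 2.1.1 and the build was mm10, their roles not stated. For annotation, scaling between libraries and the way 2 libraries became 1 value, the sources used here give nothing. Low RPKM values were searched for steps of whole reads (5 steps, tolerance 0.05 of a step). Between 17.3% and 21.1% of values lay within tolerance, where 10.0% would with no steps, so depth stayed unknown and no interval is given.

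Rows with a repeated symbol (158 symbols, none a member) were summed. Genes with at least 1 RPKM in 1 group (10351) were compared on log2(RPKM + 1), leaving out values of exactly 0, and a change of at least 1 counted as a call. There is no test with 1 value per group. Some listed marker genes are not reported here. The members, the gene lists and the rules were chosen with earlier results of these data known. The text names Fn1, Col1a1, Col1a2, Col3a1, every member past the threshold, the most abundant and most or least changed of each role, and up to 4 genes of each further list. The promoters of Col18a1 and Col1a2 and the Fn1 to Fgb, Col18a1 and marker ratios were chosen after values were seen. Of the 40 genes, 40 matched a RefSeq entry, Ctgf through a synonym. Python 3.11.15 with pandas 2.3.3 and numpy 2.4.6 did the calculations, which were first tested on simulated data, and matplotlib 3.10.9 drew the figures. Alternatives tried were a filter of 5 RPKM or none, a filter on a mean of 1 RPKM, and pseudocounts of 0.1 and 5. Further ones were a 1.5-fold threshold, the highest of repeated rows, zeros kept, both rescalings and other collagen sums.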

Additional observations from a re-analysis of the deposited data

How the results depend on the processing

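The falls of Fn1 and Col18a1 in knockout livers were called on both diets under every alternative run. In knockout against flox on the high-fat diet, 3 members and 111 of all genes rose as reported. These became 7 and 231 with a pseudocount of 0.1, 0 and 37 with 5, 1 and 64 with a filter of 5 RPKM, 10 and 330 with a 1.5-fold threshold, and 6 and 186 or 6 and 193 under the rescalings. For high fat against chow in knockout livers 3 members and 69 genes became 5 and 189, 0 and 30, 1 and 48, 8 and 277, and 5 and 132 or 5 and 134 in the same order, with Fn1 among the 5 under each rescaling. On chow 0 members and 26 genes rose as reported, 1 (Mmp2) and 81 with a pseudocount of 0.1 and 3 (Col3a1, Col6a1 and Lum) and 113 at 1.5-fold. For the difference between the knockout changes, 1 member and 68 genes became 0 and 38 with a pseudocount of 5, 0 and 54 with a filter of 5 RPKM, and 3 and 239 at 1.5-fold. A filter on a mean of 1 RPKM leaves out Mmp12. With it 2 members and 91 genes rose in knockout against flox on the high-fat diet. With diet in knockout livers 2 and 58 rose, and for the difference 0 and 59. Counts over all genes thus moved with those of the members. The rises of the collagens and Mmp12, all low genes, depended on the pseudocount.

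The log2 change of the Fn1 to collagen ratio on chow was -2.49 as reported, -2.45 with Col5a1 and Col5a2 added, -2.51 against Col3a1 alone and -2.65 against Col1a1 alone. On the high-fat diet it was -2.84, -2.80, -2.84 and -3.09 in that order. With diet it was -0.13, -0.12, -0.16 and -0.19 in flox and -0.48, -0.46, -0.50 and -0.62 in knockout livers. The ratio change kept its sign in each of these. Every collagen in these sums was higher in knockout livers on each diet and Fn1 was lower, so the genotype sign could not turn. The fibrillar collagens Col27a1 and Col5a3, lower in knockout livers, were not added to any sum. Depth is unknown, which limits genes under 1 RPKM most. No paired analysis was possible because the tables hold 1 value per group, and for the same reason no library could be left out.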

Other observations

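Receptors for matrix were measured in the same tables. Of 18 listed integrin, syndecan and collagen receptor genes, 12 reached 1 RPKM in a group, and the list median in knockout against flox was -0.10 on chow and 0.01 on the high-fat diet. The collagen-binding receptor kinase Ddr1 rose in knockout livers on the high-fat diet (0.247 to 1.84 RPKM, log2 change 1.19). Sdc4, the heparan sulfate proteoglycan syndecan 4, is a co-receptor for fibronectin. Sdc4 stood at 138 and 121 RPKM in flox livers on chow and high fat and at 108 and 66.2 RPKM in knockout livers. It was lowest in knockout high fat, where Col1a1, Col1a2 and Col3a1 were highest. Cd44, a hyaluronan receptor, stood at 1.99, 2.59, 1.74 and 3.55 RPKM.

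Collagens outside the 40 genes were mostly low. Of 21 listed, 3 reached 1 RPKM, and none passed the threshold in any comparison. Col27a1 (3.43, 5.53, 2.47 and 3.97 RPKM) and Col5a3 (2.60, 3.36, 2.28 and 2.11 RPKM) were highest in flox high fat. Both are fibrillar collagens, and unlike those among the 40 genes both were lower in knockout livers on each diet. On chow and high fat the log2 changes were -0.35 and -0.39 for Col27a1 and -0.13 and -0.49 for Col5a3. Col13a1 lay between 0.936 and 1.10 RPKM. Among further proteases, Mmp19 stood at 11.5, 12.8, 6.24 and 5.99 RPKM, lower in both knockout groups (log2 changes -0.79 and -0.98), opposite to Mmp2 and Mmp12, and Mmp15 stood at 12.7, 11.7, 17.4 and 15.8 RPKM, higher in both. Among PDGF genes, Pdgfc (0.620, 0.643, 1.03 and 1.49 RPKM) and the fibroblast receptor Pdgfra (0.470, 0.595, 0.798 and 1.15 RPKM) were highest in knockout high fat.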
